A study of Mus musculus with 6 samples.

Results

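Osteocytes, the cells embedded in bone mineral, can dissolve the matrix around their own lacunae, a process named perilacunar remodelling. It draws on the machinery that osteoclasts use: carbonic anhydrase makes protons and bicarbonate from carbon dioxide and water, a vacuolar proton pump (V-ATPase) moves the protons across a membrane, a chloride exchanger balances the charge, an anion exchanger removes the bicarbonate, and cathepsin K and an acid phosphatase work in the acid space. Signalling through the PTH receptor is known to raise several of these genes in osteocytes of lactating animals.

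Here 9 genes of this machinery are described, taken by symbol from the 39179 genes listed for each library, and each symbol matched 1 gene. They are Ctsk and Acp5 (protease and phosphatase), Car2 and Car3 (carbonic anhydrases), Atp6v1g1, Tcirg1 and Atp6v0d2 (proton pump subunits), Clcn7 (chloride and proton exchanger) and Slc4a2 (chloride and bicarbonate exchanger). RNA came from Ocy454, a mouse osteocytic cell line used here as 1 single-cell subclone, which had been held for 14 days at 37 °C after reaching confluence at a lower temperature. All groups shared this culture and differed in a treatment of 4 h: vehicle (PBS with HCl), PTH 1-34 at 1 nM, or YKL-05-093, an inhibitor of the salt-inducible kinases (SIKs), at 0.5 µM. Each of the 3 conditions had 2 libraries, and the labels do not say whether these came from separate cultures, so the spread between them may be technical. The labels name 1 vehicle for both treatments, whereas the study's methods give DMSO as the solvent of the compound stocks used on cells and PBS with HCl as the vehicle in animals. Whether the vehicle cultures received DMSO is not given in the sources used here, so an effect of the solvent of YKL-05-093 cannot be told apart from that of the compound. The 2 comparisons with vehicle share the same vehicle libraries.

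Values are RPKM, reads per length of the gene, scaled to all reads of the library. The libraries held between 17505798 and 27983585 reads, worked back from the steps between RPKM values. Tnfsf11, the gene of RANKL and a known PTH target, was at 0.358 and 0.272 RPKM in vehicle, 12.6 and 10.6 with PTH and 3.09 and 2.57 with YKL-05-093, so both treated groups had responded. The vehicle replicates lay further apart than the others, with a median absolute log2 difference of 0.333 over tested genes, against 0.108 for PTH and 0.103 for YKL-05-093. Of 6 osteocyte markers, 3 passed the filter on low values, namely Pdpn, Phex and Dmp1. Pdpn was the highest, with a mean of 108 RPKM. Phex was at 1.82 and 0.764 RPKM in vehicle, 4.93 and 1.91 with PTH, and 2.72 and 4.80 with YKL-05-093. Dmp1 lay between 0.376 and 1.15 RPKM over the 6 libraries. Sost and Fgf23 had at most 3 reads in every library, so these 2 products of a mature osteocyte were near 0 in these libraries. By RT-qPCR, the paper reports a fall of Sost with PTH in Ocy454 cells. The osteoblast genes were all present, led by Col1a1 at a mean of 362 RPKM.

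The markers of osteoclasts, the other cell that uses this machinery, were read beside the 9 genes. Of 9 osteoclast markers, 2 passed the filter on low values, Itgb3 and Mmp9. Mmp9 was at 0.421 and 0.477 RPKM in vehicle, 0.538 and 0.580 with PTH, and 0.476 and 0.588 with YKL-05-093. Csf1r had 7 and 6 reads in vehicle, 14 and 12 with PTH, and 7 and 7 with YKL-05-093, and Dcstamp 1 to 5 reads. Ocstamp was at 0 in all libraries, and Calcr, Oscar, Tnfrsf11a and Siglec15 had at most 3 reads in any. The summed osteoclast level ranged from 2.52 to 3.36 RPKM in vehicle, 4.77 to 5.96 with PTH and 3.53 to 3.67 with YKL-05-093, and most of it was Itgb3 (mean 3.25 RPKM), an integrin that is not particular to osteoclasts. For leukocytes, 2 of 6 markers passed, Cd68 at a mean of 4.08 RPKM and Cd14 at 2.33, and Emr1 and Itgam had at most 3 reads. Adipocyte (1 of 6 passed, Fabp4 at 1.80 RPKM, Cidec and Lep at 0) and skeletal muscle markers (0 of 6 passed, Acta1 at 0.334 RPKM, Ckm at 0) were also low. In bulk RNA, fewer cells of a type and less RNA per cell cannot be told apart.

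Promoter sequence was at hand for 5 of the 9 genes (RefSeq, GRCm38.p6), in 11 windows that run from 250 bases before to 50 after a start site. It was searched on both strands for the letters of a cAMP response element (CRE, TGACGTCA), which is the site of the PTH and CREB pathway, and for its core TGACG. Further letters were the E-box CACGTG, the longer form TCACGTG of the Mitf and Tfeb family, which governs osteoclast and lysosome genes, the variant TCATGTG of the same family, and the AP-1 site TGAGTCA. The E-box letters lie inside the longer form, and the core inside the CRE. Shown are the window of Ctsk, the highest of the 5, that of Clcn7, which held most matches, and the upstream window of Tcirg1, with matched letters in capitals.
Ctsk, chr3:95498960-95499259, + strand: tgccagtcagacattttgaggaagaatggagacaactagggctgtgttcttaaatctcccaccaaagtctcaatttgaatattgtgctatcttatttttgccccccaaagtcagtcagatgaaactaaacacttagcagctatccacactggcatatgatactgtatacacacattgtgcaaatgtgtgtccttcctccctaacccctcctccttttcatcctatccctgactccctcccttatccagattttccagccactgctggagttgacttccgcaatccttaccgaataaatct
Clcn7, chr17:25133141-25133440, + strand: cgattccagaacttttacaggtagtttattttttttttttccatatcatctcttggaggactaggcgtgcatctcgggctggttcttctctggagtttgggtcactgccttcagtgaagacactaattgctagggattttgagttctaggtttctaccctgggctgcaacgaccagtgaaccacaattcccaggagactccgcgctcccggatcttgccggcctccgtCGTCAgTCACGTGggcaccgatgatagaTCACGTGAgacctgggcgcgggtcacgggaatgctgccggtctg
Tcirg1, chr19:3907084-3907383, - strand: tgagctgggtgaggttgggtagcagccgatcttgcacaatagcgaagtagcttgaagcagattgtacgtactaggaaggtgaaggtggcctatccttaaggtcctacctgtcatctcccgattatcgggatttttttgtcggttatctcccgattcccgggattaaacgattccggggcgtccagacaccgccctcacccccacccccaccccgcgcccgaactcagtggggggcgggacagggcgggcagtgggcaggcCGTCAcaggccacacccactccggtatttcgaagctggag

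The full CRE and the AP-1 site were in 0 of the 11 windows, against 1.79% and 5.2% of 32851 mouse promoter windows. The core TGACG was in 3 of the 11, 1 of Clcn7 and 2 overlapping ones of Tcirg1, against 20.8%. The E-box and TCACGTG were in the printed Clcn7 window, with 2 E-boxes, each inside a TCACGTG match, against 7.15% and 3.77% of promoters. TCATGTG was in 1 other window of Clcn7 and 1 of Acp5, against 3.77%. The windows of Ctsk and Slc4a2 held no match to any of these letters. The Ctsk window had 2 CpG pairs, where the median promoter window had 7, and that of Clcn7 had 17. These matches describe letters and not binding.

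The levels of the 9 genes fell into separate tiers, with Atp6v1g1 and Ctsk near 100 RPKM, Car3, Tcirg1, Clcn7 and Slc4a2 between 9.54 and 26.8 RPKM, Car2 below 1 RPKM, and Acp5 and Atp6v0d2 at or under the floor of 3 reads in every library. In vehicle the means ± SD (n = 2) were 121 ± 24.9 RPKM for Atp6v1g1, 80.1 ± 8.43 for Ctsk, 17.7 ± 2.16 for Car3, 16.4 ± 0.606 for Tcirg1, 14.4 ± 2.26 for Clcn7, 10.8 ± 1.79 for Slc4a2 and 0.734 ± 0.267 for Car2. The vehicle libraries of Tcirg1 overlapped with those of Car3 and of Clcn7, so its place between them does not hold against the spread. Those of Car3 and Clcn7 did not overlap, but were parted only by 16.15 against 16.05 RPKM in vehicle replicate 1. The order of Car3 and Clcn7 is therefore not clear of the spread either. Without overlap were also the vehicle libraries of Atp6v1g1 and Ctsk, of Ctsk and Car3, of Clcn7 and Slc4a2, and of Slc4a2 and Car2. By mean RPKM over all libraries, Atp6v1g1 ranked 530 and Ctsk 700 among all listed genes, and Car2 ranked 13306.

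**Figure D1:**
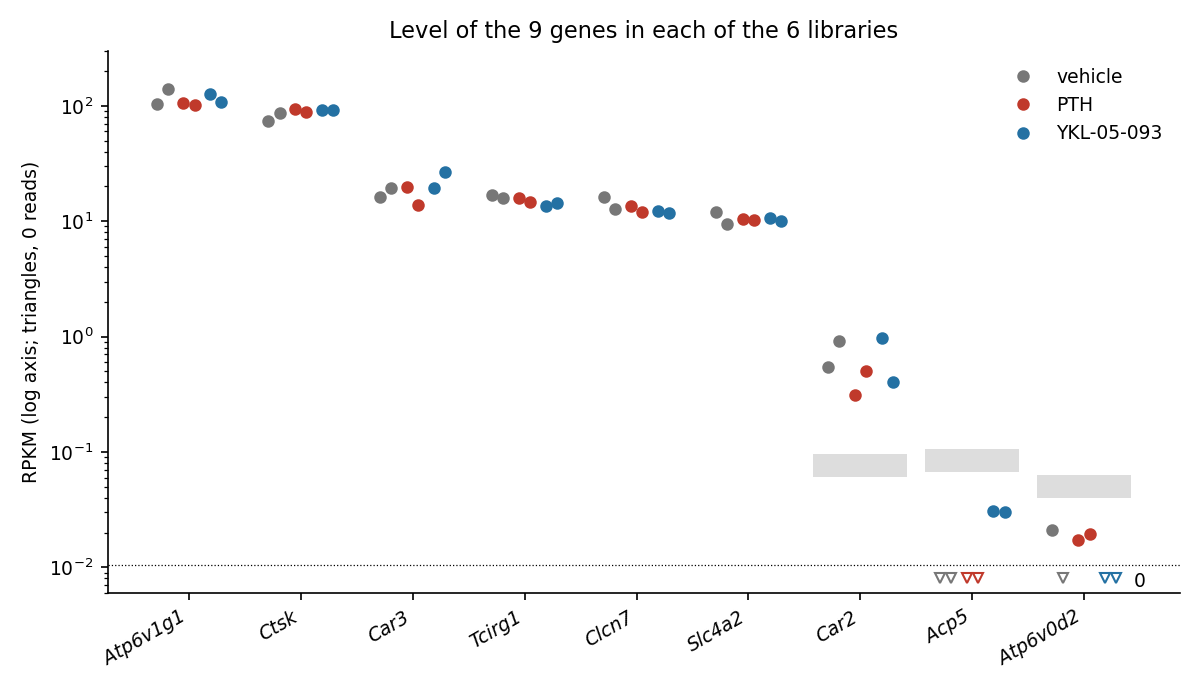
RPKM of the 9 genes on a log axis, with 1 point per library (grey, vehicle; red, PTH; blue, YKL-05-093; 2 libraries each). Open triangles under the dotted line are libraries with 0 reads, and the grey bands under Car2, Acp5 and Atp6v0d2 span the level of 3 reads in the 6 libraries; the points of Acp5 and Atp6v0d2 stand for 1 read each.

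Ctsk (ENSMUSG00000028111, chromosome 3, 95499256 to 95509362, GRCm38, + strand) encodes cathepsin K, the collagen-degrading protease of osteoclasts, and was the higher of the protease and phosphatase pair by far. It was at 74.1 and 86.0 RPKM in vehicle, 94.7 and 87.8 with PTH, and 92.4 and 91.5 with YKL-05-093, from 1912 to 3548 reads a library. All 4 treated libraries were above both vehicle libraries, by a margin smaller than the gap between the vehicle libraries. The log2 fold change was 0.19 for PTH (SE 0.17, 95% interval -0.21 to 0.59, limma adjusted p = 0.726) and 0.20 for YKL-05-093 (SE 0.17, 95% interval -0.19 to 0.60, limma adjusted p = 0.839), and neither passed. Between the treatments, Ctsk differed by -0.01 (95% interval -0.15 to 0.13). This interval lay inside 2-fold, but it rests on a spread between libraries that may be technical. Without vehicle replicate 2, the changes were 0.30 for PTH and 0.31 for YKL-05-093, still under 2-fold. Without vehicle replicate 1 they were 0.08 and 0.10, so their size rests on which vehicle library is used.

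Ctsk was not the leading cathepsin of these cells. Of the summed RPKM of 14 cathepsin genes, Ctsk made 8.45% to 9.03% in the 6 libraries, and Ctsd, an aspartic protease of lysosomes, made 25.6% to 26.6%. Ctsz, Ctsl and Ctsb each made more than Ctsk as well. The share of Ctsk moved by less than 1 percentage point over all libraries and conditions. By the pattern over the 6 libraries (the root mean square difference of log2 values, each gene centred on its mean), the genes most like Ctsk among 14264 were 2210016L21Rik (0.02), Dera (0.02) and Itm2c (0.02), against a deviation of 0.12 of Ctsk itself. All of these varied little over the libraries, and the likeness is given as a description.

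Acp5 (ENSMUSG00000001348, chromosome 9, 22126727 to 22135711, - strand) encodes tartrate-resistant acid phosphatase, the enzyme stained as TRAP in osteoclasts. It had 0 reads in both vehicle and both PTH libraries and 1 read in each YKL-05-093 library, which is 0.0307 and 0.0300 RPKM. The floor of 3 reads lay between 0.0668 and 0.107 RPKM, so a level under it and any difference between the conditions were not detectable at this depth. Per length, Ctsk was at least 694-fold to 1288-fold higher than Acp5, taking Acp5 at 3 reads in each library. The genes of cathepsin K and TRAP, which osteoclasts express together, were thus far apart in these cells. Exons of 6530413G14Rik on the opposite strand overlap Acp5, and whether the counting used the strand is not given in the sources used here.

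Of the pair of carbonic anhydrases in the group, Car3 was present and Car2 was low. Car2 (ENSMUSG00000027562, chromosome 3, 14886273 to 14900770, + strand) encodes the cytosolic enzyme whose loss in humans causes osteopetrosis. It was at 0.545 and 0.922 RPKM in vehicle, 0.312 and 0.500 with PTH, and 0.968 and 0.406 with YKL-05-093, on 12 to 46 reads. Both PTH libraries were below both vehicle libraries, and the YKL-05-093 libraries lay on either side of them. The log2 change for PTH was -0.71 (SE 0.38, 95% interval -1.60 to 0.18, limma adjusted p = 0.507) and did not pass. From the reads alone, the exact Poisson interval of 95%, which covers counting error only, ran from 0.161 to 0.544 RPKM in PTH replicate 1 and from 0.675 to 1.23 in vehicle replicate 2, while those of PTH replicate 2 (0.291 to 0.801) and vehicle replicate 1 (0.317 to 0.873) overlapped. For YKL-05-093 the log2 change was -0.14 (SE 0.44, 95% interval -1.19 to 0.90, limma adjusted p = 0.963), so a change of 2-fold in Car2 lies within both intervals on the lower side.

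Car3 (ENSMUSG00000027559, chromosome 3, 14863512 to 14872523, + strand) encodes a carbonic anhydrase of low activity, best known from muscle and fat, and is the neighbour of Car2 on the same strand, with 13749 bases and 0 protein-coding genes between them. It was at 16.1 and 19.2 RPKM in vehicle, 19.6 and 13.8 with PTH, and 19.4 and 26.8 with YKL-05-093. The PTH libraries spanned the vehicle libraries, and both YKL-05-093 libraries were above vehicle, 1 of them only just. Relative to vehicle, the log2 change of Car3 was -0.10 for PTH (SE 0.22, limma adjusted p = 0.897) and 0.37 for YKL-05-093 (SE 0.21, 95% interval -0.12 to 0.87, limma adjusted p = 0.749). In the direct comparison Car3 was lower with PTH than with YKL-05-093 by -0.47 (SE 0.16, 95% interval -0.81 to -0.13), with an unadjusted p = 0.00991 from limma that did not pass adjustment (limma adjusted p = 0.0800), and the libraries of the 2 treatments overlapped. Of the 6 genes above 1 RPKM, Car3 varied most, with a coefficient of variation of 23.0% over the 6 libraries, against 8.42% for Ctsk. Per length, Car3 was 29.6-fold and 20.8-fold higher than Car2 in the vehicle libraries. The reads worked back for Car3 are the smallest whole numbers that give its RPKM, and the length they imply, 750 bases, is below the 804 to 1679 bases of its GENCODE transcripts, so its true reads may be a multiple. Its level and changes are therefore given in RPKM, and its reads enter only the model of the spread, the fit on reads and the order of levels without length.

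Among all 16 carbonic anhydrases, Car3 made 29.1% to 44.6% of the summed RPKM and Car13, a cytosolic relative, 32.0% to 40.4%, while Car2 made 0.643% to 1.82%. Car9, a membrane enzyme with its active site outside the cell, followed with 10.6% to 16.3%. Of 14 other carbonic anhydrases 4 were tested, and all 4 were below 0 in log2 change with PTH and with YKL-05-093. Over all tested genes, 6524 of 14261 and 6163 of 14255 were above 0. The directions of the 4 genes are not independent, because they share the same 2 vehicle libraries. With YKL-05-093 the change was only -0.03 for Car5b and -0.05 for Car9. The 1 of the 4 that was called was Car8, a relative that lacks the catalytic activity. Car8 was at 1.77 and 1.72 RPKM in vehicle, 0.710 and 0.505 with PTH, and 1.41 and 1.42 with YKL-05-093. The log2 change of Car8 for PTH was -1.40 (SE 0.22, limma adjusted p = 0.0238), and it was lower with PTH than with YKL-05-093 by -1.11 (SE 0.20, limma adjusted p = 0.00117). Without PTH replicate 2, the call against vehicle was lost (-1.19, limma adjusted p = 0.0646), and the difference between the treatments fell under 2-fold (-0.90, limma adjusted p = 0.0304). Car5b, a mitochondrial form, was at 4.34 and 3.83 RPKM in vehicle, 2.92 and 3.11 with PTH, and 3.67 and 4.35 with YKL-05-093. Both PTH libraries of Car5b were below the other 4. It was lower with PTH than with YKL-05-093 by -0.40 (limma adjusted p = 0.0158), under 2-fold, and this was lost without PTH replicate 1 (limma adjusted p = 0.145), PTH replicate 2 (0.0708) or YKL-05-093 replicate 2 (0.161). Against vehicle, Car5b was at -0.43 with PTH (limma adjusted p = 0.312) and Car13 at -0.37 (limma adjusted p = 0.358), and neither passed.

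Of the proton pump, the broadly used subunits were present and the osteoclast form of the d subunit was not detectable. Atp6v1g1 (ENSMUSG00000039105, chromosome 4, 63544772 to 63550750, + strand) encodes the G1 subunit of the stalk of the pump's cytosolic part. It was at 104 and 139 RPKM in vehicle, 106 and 102 with PTH, and 127 and 108 with YKL-05-093. The vehicle libraries were further apart than any pair of treated libraries and spanned most of the range. Its log2 change was -0.21 for PTH (SE 0.19, limma adjusted p = 0.739) and -0.03 for YKL-05-093 (SE 0.20, limma adjusted p = 0.985). After PTH it was below both YKL-05-093 libraries, by -0.18 (SE 0.08, unadjusted p = 0.0336 and adjusted p = 0.177 from limma). Without vehicle replicate 1, the change for PTH was -0.42 (limma adjusted p = 0.000155), and without vehicle replicate 2 it was 0.00, so the value rests on which vehicle library is used. Of the 3 G subunits, Atp6v1g1 made 99.4% to 99.8% of the summed RPKM, and the kidney form Atp6v1g3 had 0 reads.

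Tcirg1 (ENSMUSG00000001750, chromosome 19, 3896050 to 3907133, - strand) encodes the a3 subunit, which brings the pump to the bone-facing membrane of osteoclasts and whose loss is a frequent cause of recessive osteopetrosis. It was at 16.9 and 16.0 RPKM in vehicle, 16.0 and 14.7 with PTH, and 13.6 and 14.4 with YKL-05-093, from 1210 to 1968 reads. The YKL-05-093 libraries were the lowest of the 6, and the higher PTH library lay just under the lower vehicle library. The log2 change was -0.10 for PTH (SE 0.16, limma adjusted p = 0.855) and -0.23 for YKL-05-093 (SE 0.15, 95% interval -0.60 to 0.13, limma adjusted p = 0.799), and PTH exceeded YKL-05-093 by 0.13 (SE 0.07, limma adjusted p = 0.307). Among the 4 a subunits, Tcirg1 made 35.5% to 41.1% of the summed RPKM. Atp6v0a2, the form of the Golgi, made 37.2% to 45.9% and Atp6v0a1, found on many vesicles, 17.9% to 21.0%, so Tcirg1 was one of 2 leading a subunits in these cells.

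Atp6v0d2 (ENSMUSG00000028238, chromosome 4, 19876841 to 19922605, - strand) encodes the d2 subunit, the osteoclast form that also takes part in the fusion of their precursors. It had 1 read in vehicle replicate 1 and in each PTH library and 0 in the other 3, and the floor of 3 reads lay between 0.0396 and 0.0633 RPKM. Its broadly used counterpart Atp6v0d1 was at 64.7 and 72.4 RPKM in vehicle, 70.0 and 72.5 with PTH, and 68.5 and 70.2 with YKL-05-093. Per length, Atp6v0d1 was at least 1023-fold to 1828-fold higher than Atp6v0d2, with Atp6v0d2 taken at 3 reads. In all conditions the d subunit RNA was that of Atp6v0d1, whose log2 change was 0.06 for PTH (limma adjusted p = 0.924) and 0.02 for YKL-05-093 (limma adjusted p = 0.988).

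Clcn7 (ENSMUSG00000036636, chromosome 17, 25133391 to 25162104, + strand) encodes the lysosomal chloride and proton exchanger that supplies the counter-ion for acid secretion. It was at 16.0 and 12.8 RPKM in vehicle, 13.5 and 12.0 with PTH, and 12.2 and 11.7 with YKL-05-093. Vehicle replicate 1 was the highest library, and the other 5 lay within 11.7 to 13.5 RPKM. Against vehicle, Clcn7 differed on the log2 scale by -0.18 for PTH (SE 0.18, limma adjusted p = 0.759) and -0.26 for YKL-05-093 (SE 0.18, 95% interval -0.68 to 0.15, limma adjusted p = 0.798). Without vehicle replicate 2 the changes were -0.34 (limma adjusted p = 0.00196) and -0.42 (limma adjusted p = 0.00201), and without vehicle replicate 1 they were -0.02 and -0.10. Ostm1, the partner protein that Clcn7 needs for stability, was at 8.93 to 10.8 RPKM over the 6 libraries, with a log2 change of 0.05 for PTH (limma adjusted p = 0.944) and -0.05 for YKL-05-093 (limma adjusted p = 0.964). Clcn7 made 37.0% to 41.0% of the summed RPKM of 5 endosomal and lysosomal exchangers of its family, next to Clcn4-2 with 33.9% to 38.4%.

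Slc4a2 (ENSMUSG00000028962, chromosome 5, 24423837 to 24440950, + strand) encodes the anion exchanger AE2, which removes bicarbonate in exchange for chloride on the side away from the acid. It was at 12.1 and 9.54 RPKM in vehicle, 10.4 and 10.2 with PTH, and 10.7 and 10.1 with YKL-05-093. The 4 treated libraries all lay between the vehicle libraries. Its log2 change was -0.06 for PTH (SE 0.18, 95% interval -0.48 to 0.36, limma adjusted p = 0.929) and -0.05 for YKL-05-093 (SE 0.18, 95% interval -0.47 to 0.37, limma adjusted p = 0.971), and the treatments differed by -0.01 (95% interval -0.16 to 0.13). Among the 9 transporters of the SLC4 family listed, Slc4a2 made 46.9% to 56.9% of the summed RPKM and Slc4a7, a sodium bicarbonate cotransporter, 35.6% to 46.0%. Exons of Fastk on the opposite strand overlap those of Slc4a2 over 1141 bases, so part of its reads may be those of Fastk if the counting did not use the strand.

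**Figure D2:**
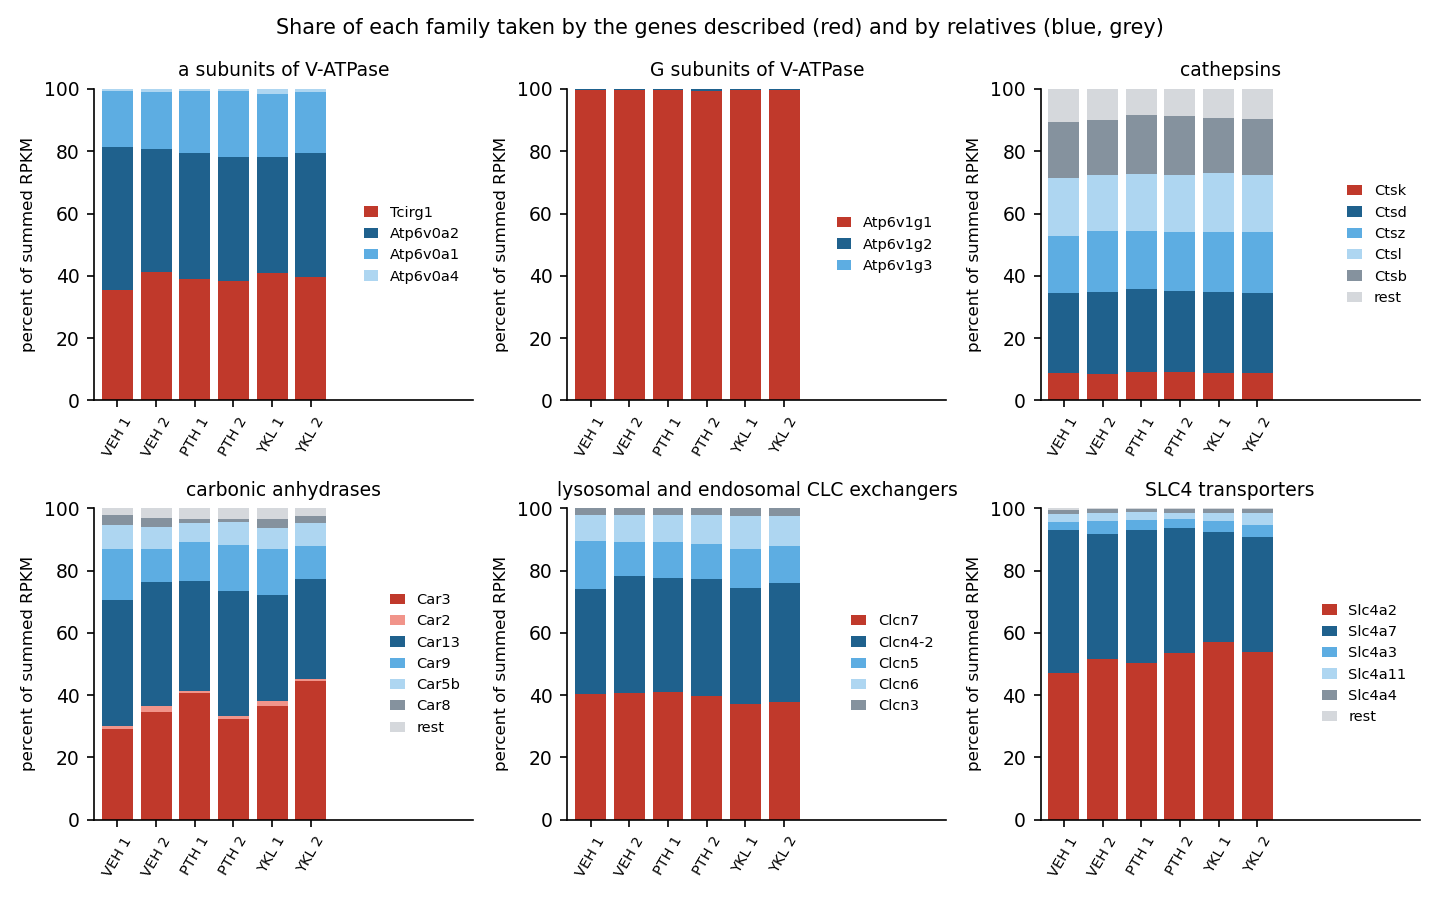
Percent of the summed RPKM of 6 gene families made by each gene, with 1 bar per library (VEH, vehicle; YKL, YKL-05-093). Red and pink are the genes described here, blue and grey their relatives; the shares of Ctsk (8.45% to 9.03%) and Atp6v1g1 (99.4% to 99.8%) hardly moved, and Car3 had the widest range, 29.1% to 44.6%.

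Counted over the group, 0 of the 7 tested genes were called (limma adjusted p under 0.05 and more than 2-fold) in any of the 3 comparisons, and 2 of the 9 were under the filter. For PTH against vehicle, 1.91% of 14261 tested genes were called, for YKL-05-093 against vehicle 0.666% of 14255, and for PTH against YKL-05-093 1.21% of 14255, so a count of 0 among 7 is near these shares. At an unadjusted p under 0.05 there were 0 of 7 for PTH, against 13.3% of all tested genes, 0 of 7 for YKL-05-093, against 8.66%, and 2 of 7 between the treatments (Car3 and Atp6v1g1), against 22.3%. With voom on the recovered reads, 0 were called as well, with the same counts at an unadjusted p under 0.05. The libraries of the 2 conditions did not overlap for 3 of 7 genes with PTH (Ctsk higher, Tcirg1 and Car2 lower), where 43.1% of all tested genes did not overlap, for 4 of 7 with YKL-05-093 (Ctsk and Car3 higher, Tcirg1 and Clcn7 lower), against 37.8%, and for 2 of 7 between the treatments (Tcirg1 higher with PTH, Atp6v1g1 lower), against 50%. The median log2 change of the 7 genes was -0.10 for PTH and -0.05 for YKL-05-093, and over all tested genes it was -0.03 and -0.04. For a single gene, the smallest exact two-sided permutation p that 2 against 2 libraries allow is 0.333, and the limma values borrow the spread of the other genes. An adjusted p above the threshold does not show that a gene did not change. For 6 of the 7 genes the intervals against vehicle lay inside 2-fold in both directions, Car2 being the exception. These intervals rest on 2 libraries per condition, whose spread may be technical.

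**Figure D3:**
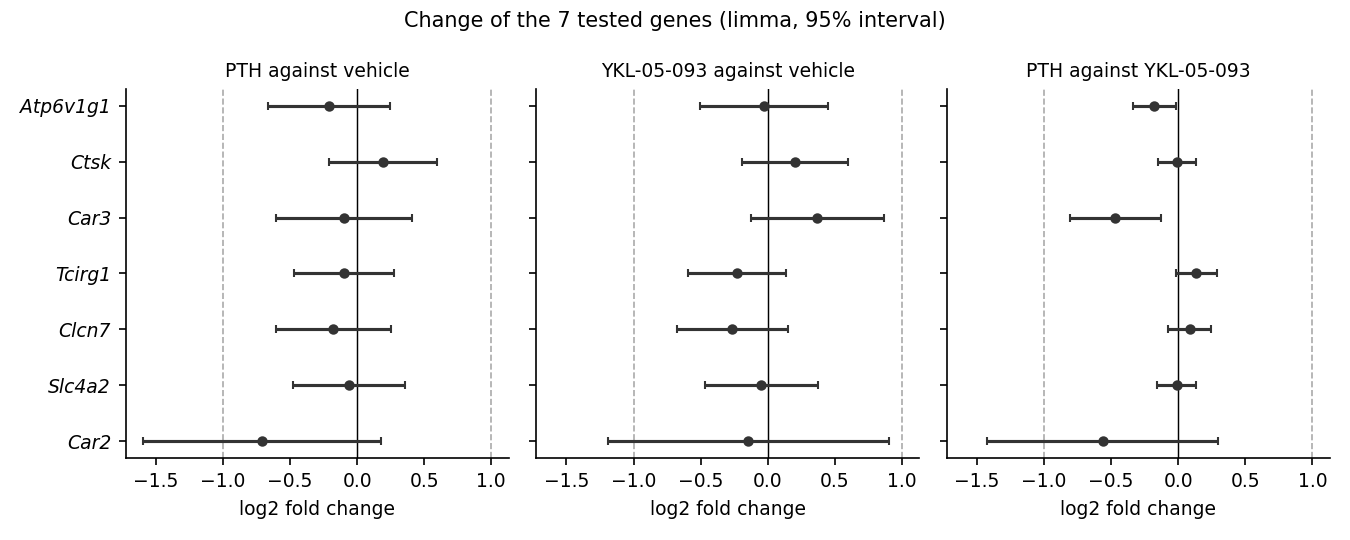
Log2 fold change of the 7 tested genes in the 3 comparisons, with the 95% interval of the limma fit (2 libraries per condition); dashed lines mark 2-fold. All intervals but those of Car2 stay inside 2-fold, and the intervals between the treatments are narrower than those against vehicle, whose replicates were further apart. The spread between libraries behind these intervals may be technical.

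The rest of the machinery was read from 7 lists with 79 genes, of which 52 passed the filter. For PTH against vehicle, 1 of the 52 was called higher (Mmp13) and 1 lower (Car8), where 1.91% of all tested genes were called, and 7 of 52 were at an unadjusted p under 0.05, against 13.3%. For YKL-05-093 against vehicle 0 of 52 were called by limma, against 0.666%, with 2 at an unadjusted p under 0.05 (Mmp2 and Tpcn2), against 8.66%. Between the treatments, Mmp13 was called higher and Car8 lower with PTH, against 1.21%, and 9 of 52 were at an unadjusted p under 0.05, against 22.3%.

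Of 22 other V-ATPase subunits and accessory proteins, 15 were tested and 0 were called in any comparison, with 0 at an unadjusted p under 0.05 against vehicle for either treatment and 2 (Atp6v0a1 and Atp6v0a2) between the treatments. Their log2 changes lay between -0.20 and 0.21 for PTH and between -0.46 and 0.16 for YKL-05-093, with medians of -0.01 and 0.02. The highest was Atp6v1e1, a stalk subunit, at 116 and 157 RPKM in vehicle, 160 and 151 with PTH, and 143 and 146 with YKL-05-093. Of 9 other bicarbonate and proton exchangers, 4 were tested and 0 called, led by Slc4a7, which was higher with PTH than with YKL-05-093 by 0.27 (limma adjusted p = 0.0372), under 2-fold. Without PTH replicate 1 it was 0.18 (limma adjusted p = 0.307), without YKL-05-093 replicate 1 0.24 (limma adjusted p = 0.113), and in 1 fit of all libraries the limma adjusted p was 0.955. Of 16 other lysosomal proteases with an acid phosphatase and the inhibitor Cst3, 12 were tested and 0 called, with 0 at an unadjusted p under 0.05 against vehicle and 1 (Ctsa) between the treatments. All 12 of them were above 0 in log2 change with YKL-05-093 (median 0.13) and 8 of 12 with PTH (median 0.09), where 6163 of 14255 and 6524 of 14261 tested genes were above 0, and none of the 12 passed. These directions are not independent, because the 12 genes share the same 2 vehicle libraries, and they were not recomputed without 1 of these libraries. Cst3 was at 188 RPKM in vehicle replicate 2 and at 170 and 167 with YKL-05-093, and Ctsa at 82.2 and at 75.8 and 81.0. Against that vehicle library alone, not all 12 genes were therefore higher with YKL-05-093. Ctsd, the highest, was at 218 and 267 RPKM in vehicle, 279 and 255 with PTH, and 268 and 269 with YKL-05-093.

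Of 10 other lysosomal chloride, channel and trafficking genes, all 10 were tested and 0 called, and the highest was the calcium channel Mcoln1, at 16.6 to 20.1 RPKM. Tpcn2, which encodes a lysosomal cation channel, was at 3.11 and 3.31 RPKM in vehicle, 5.92 and 6.05 with PTH, and 6.03 and 5.32 with YKL-05-093. The 4 treated libraries were all above the vehicle libraries. Tpcn2 had a log2 change of 0.88 for PTH (SE 0.16, limma adjusted p = 0.0382) and 0.80 for YKL-05-093 (SE 0.17, limma adjusted p = 0.120), both under the 2-fold rule. For PTH the limma adjusted p of Tpcn2 was 0.292 without PTH replicate 1 and 0.387 without PTH replicate 2. Of 5 regulators of lysosome and osteoclast genes, 4 were tested and 0 called. The highest was Tfe3, at 3.71 to 4.72 RPKM, and Tfec, a macrophage and osteoclast member of the Mitf family, had 0 reads in all libraries.

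Of the 3 metalloproteinases of the lacunar matrix, PTH moved 1 past the rule. Mmp13 (ENSMUSG00000050578) encodes collagenase-3, which cleaves fibrillar collagen at neutral pH. It was at 0.343 and 0.228 RPKM in vehicle (16 and 17 reads), 2.81 and 1.53 with PTH (162 and 78 reads), and 0.240 and 0.145 with YKL-05-093 (13 and 8 reads). Both PTH libraries were above all 4 others, and Mmp13 passed the filter on low values only through them. Without a filter it was not called, with a limma adjusted p of 0.132 for PTH against vehicle and 0.0653 between the treatments. The log2 change was 2.52 for PTH (SE 0.34, limma adjusted p = 0.0131) and -0.40 for YKL-05-093 (SE 0.41, 95% interval -1.37 to 0.57, limma adjusted p = 0.867), and the treatments differed by 2.92 (SE 0.31, limma adjusted p = 6.88e-06). With a pseudocount of 1 these changes of Mmp13 were 1.28 and 1.38, still called. Mmp2, a gelatinase, was at 149 and 128 RPKM in vehicle, 238 and 237 with PTH, and 212 and 218 with YKL-05-093. Its changes of 0.78 (limma adjusted p = 0.106) and 0.64 (limma adjusted p = 0.302) did not pass. Mmp14, the membrane-bound activator of Mmp2, was at 203 and 143 RPKM in vehicle, 159.7 and 160.3 with PTH, and 147 and 156 with YKL-05-093, and did not pass in any comparison. In vehicle Mmp14 had the higher mean of these and with either treatment Mmp2, whose libraries then lay above all of Mmp14. Beside the rise of Mmp13, the summed osteocyte markers were at 55.7 to 73.3 RPKM in vehicle, 165 to 176 with PTH and 98.4 to 99.1 with YKL-05-093, nearly all of it Pdpn, while Dmp1 was at 0.643 and 1.15 RPKM in vehicle and 0.689 and 0.723 with PTH. Of the osteoblast markers, Sp7 was called lower with PTH (mean 45.8 RPKM in vehicle and 11.6 with PTH, limma adjusted p = 0.00190) and Bglap higher (9.04 and 26.2 RPKM, limma adjusted p = 0.0286), and Runx2 was at -1.09 in log2 change (limma adjusted p = 0.0626). The summed osteoclast markers given earlier were also highest with PTH, with the defining marker Ocstamp at 0 throughout. The part of these cell states in the values of Mmp13 was not tested.

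**Figure D4:**
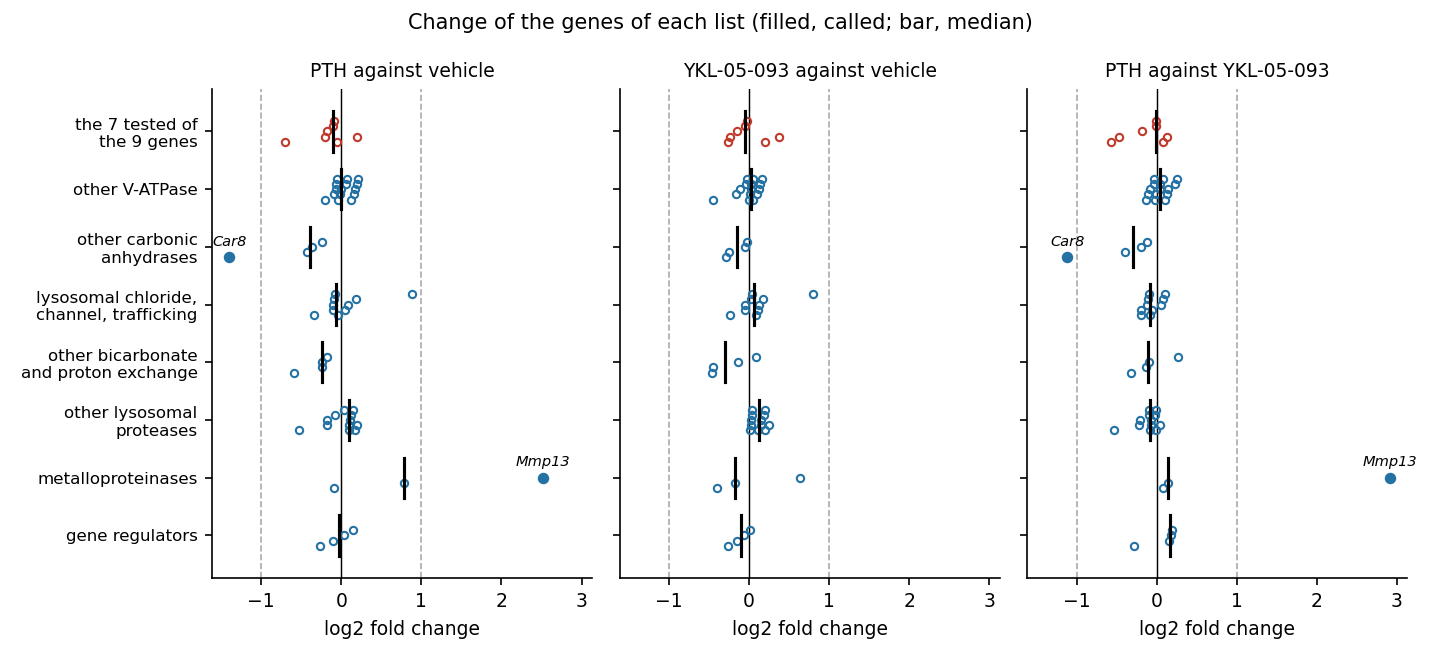
Log2 fold changes of the tested genes of each list in the 3 comparisons, with 1 circle per gene, filled where called (limma adjusted p under 0.05 and more than 2-fold), and the list's median as a bar; dashed lines mark 2-fold. The 7 tested genes of the group (red) and the other V-ATPase subunits lie inside 2-fold, with Car2 the farthest from 0 of the group at -0.71 for PTH, and the called genes are Mmp13 and Car8, in the comparisons of PTH with vehicle and with YKL-05-093.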

How the data were processed

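RNA of 6 libraries of Ocy454 cells (vehicle, PTH, YKL-05-093, 2 each, grouped by the sample titles) was sequenced after removal of ribosomal RNA, from strand-specific libraries. The authors' alignment used STAR on mm10/GRCm38 and their counting HTSeq with an Ensembl annotation. They deposited RPKM values, linear and without scaling between libraries; how gene length was taken is not given in the sources used here. The tables of single libraries and of the series held the same values (6 of 6). Whole reads were worked back from the RPKM steps for all 26214 genes above 0, as the smallest whole numbers that give them. Reads set the floor (3 reads), the counting intervals and the model of the spread.

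limma 3.58.1 (R 4.3.3) was run on log2(RPKM + 0.1) after a filter of 0.5 RPKM or more in any 2 of the 6 libraries, in a separate fit of 4 libraries per comparison, with a variance trend on mean log2 reads and Benjamini-Hochberg adjustment over all tested genes. Fold changes on this scale understate those of low genes. Genes were called at adjusted p under 0.05 and more than 2-fold. The steps were tested on simulated data. The 9 genes, the lists and the settings were chosen with earlier results of these data known. Named were the 9 genes, every called gene of a list, its highest gene, and the counterparts Atp6v0d1, Atp6v0a1, Atp6v0a2 and Ostm1. Also named were the highest and the absent defining markers, and 3 genes most like Ctsk. Others, named where a count is small or to complete the osteoclast markers, were chosen after their values were seen. Positions are those of GENCODE M21 (GRCm38), which held 37693 of the identifiers, and promoters those of RefSeq (GRCm38.p6).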

Additional observations from a re-analysis of the deposited data

How the results depend on the processing

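In each of the 3 comparisons, 0 of the 9 genes were called under every alternative that was run: a pseudocount of 0.01 or 1, a filter at 0.1 or 1 RPKM or none, no limit on the fold change, a variance trend on the mean RPKM, 1 fit of all libraries, libraries shifted to the same median, voom, a replicate block, and leaving out each library. Of 291 log2 changes recomputed for the 7 tested genes, 279 kept their direction. The change of Atp6v1g1 for YKL-05-093 against vehicle turned to 0.013 when libraries were shifted to the same median, and the cause was not tested. The other 11 turns came from leaving out 1 library, over ranges of -0.42 to 0.0021 (Atp6v1g1, PTH), -0.24 to 0.18 (Atp6v1g1, YKL-05-093), -0.35 to 0.16 (Car3, PTH), -0.68 to 0.40 (Car2, YKL-05-093), -0.23 to 0.11 (Slc4a2, PTH), -0.21 to 0.12 (Slc4a2, YKL-05-093), and, between the treatments, -0.057 to 0.032 (Slc4a2) and -0.066 to 0.043 (Ctsk). An adjusted p under 0.05, in each case under 2-fold, was reached by 13 values, 11 of them without 1 library, where a lone library is taken to vary like the others.

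Replicate numbers did not pair the libraries: the differences between replicates 1 and 2 correlated at -0.03 (vehicle and PTH), -0.05 (vehicle and YKL-05-093) and -0.05 (PTH and YKL-05-093). In fits with a replicate block, 0 of the 9 genes were called, the change of Car3 between the treatments stayed at -0.47 (limma adjusted p = 0.000954, and 0.0476 with a filter at 1 RPKM), and 441, 215 and 196 genes were called over all genes. Without a filter these counts were 0, 0 and 149, a variance trend on the mean RPKM gave 160, 6 and 137; 1 fit gave 334, 173 and 102. The pseudocount of 1 called 212, 55 and 98, and a filter at 0.1 RPKM 261, 57 and 193.

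For the list genes, alternatives were chosen after seeing the data. Mmp13 lost its call for PTH without a filter (adjusted p = 0.132) and with a variance trend on the mean RPKM (adjusted p = 0.0665), and between the treatments without a filter (adjusted p = 0.0653). Car8 lost both calls under these settings and with a pseudocount of 1 (-0.77 and -0.59), under which Mmp13 kept both at 1.28 and 1.38. For genes past the adjusted p but under 2-fold, the limma adjusted p was followed over the settings that kept all libraries. It ran from 0.0144 to 0.955 for Slc4a7, from 0.00154 to 0.422 for Car5b and from 0.00317 to 0.129 for Tpcn2 with PTH. All 3 were above 0.05 without a filter, with the trend on the mean RPKM and without PTH replicate 1, and Slc4a7 and Car5b also in 1 fit. The order of mean vehicle levels among the 9 genes changed without the correction for length, by which Car3 moved from 3 to 6, Clcn7 from 5 to 3 and Slc4a2 from 6 to 5; the place of Car3 rests on reads that may be too few. At this depth, levels of Acp5 and Atp6v0d2 under 3 reads and changes of Car2 within its interval were not detectable.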
